A study of Mus musculus with 41 samples.

Results

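The 8 genes described here code for surface and secreted markers of hair follicle stem cells. They are *Cd34*, *Lgr5*, *Lgr6* and *Lrig1*, whose products sit on the cell surface, and *Postn*, *Tnc*, *Fst* and *Fgf18*, whose products are released from the cell. They were chosen by name, 8 of the 21938 protein-coding genes of the annotation, and the peaks of each gene were those overlapping its body plus 50 kb to each side in mm10. SOX9 CUT&RUN (CNR) was measured in epidermal stem cells (EpdSCs) at D0 and after 1, 2, 6 and 12 weeks (W) of doxycycline (DOX), and MLL3/4 CNR at D0, W1 and W2. In cultured keratinocytes, CNR for the MYC tag of transgenic SOX9 and for MLL3/4 covered cells without DOX and 3 forms of SOX9 with DOX. Each of the 16 groups had 2 samples behind 1 pooled peak list, so that differences between groups have no replicate error and were not tested.

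All cells in skin came from male CD1 mice of the genotype K14rtTA; TRE-myc-Sox9, in which the Krt14 promoter drives the DOX-dependent activator in basal epithelial cells and a MYC-tagged *Sox9* transgene responds to it. D0 cells came from mice at postnatal day 21 and carried both transgenes without induction. DOX was injected at day 21 and then given in the feed, and the mice were 28 days old at W1, 35 at W2 and 63 at W6. Age thus rose with weeks of DOX, and no uninduced group of the later ages is among these groups, so that age and DOX cannot be told apart. The W12 skin had been grafted onto immunocompromised Nude hosts and its age is not labelled, so that age, grafting and weeks of DOX cannot be told apart there. The cells were sorted as CD31, CD45, CD117 and CD140a negative, CD49f high, CD34 negative and Ly6A high. The gate therefore used the product of *Cd34* itself, and cells showing it on their surface were left out at every time. The cultured keratinocytes came from CD1 back skin of males and were K14rtTA with TRE-myc-Sox9 (WT-SOX9, with or without DOX), with TRE-myc-Sox9noTA, which lacks the transactivation domain (dTA-SOX9), or with TRE-myc-Sox9noHMG, which lacks the DNA-binding HMG domain (dHMG-SOX9). The variants were delivered by lentivirus and DOX was used at 1 µg per ml. The peak lists hold no expression values, so whether these genes were transcribed was not measured.

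SOX9 is a transcription factor of the HMG box family that hair follicle stem cells need and that interfollicular epidermal stem cells lack. MLL3 and MLL4 are methyltransferases that place the H3K4me1 mark on enhancers, and their binding marks sites at which an enhancer is being primed or used. In the hair follicle, CD34 and LGR5 mark the bulge and lower bulge, while LGR6 and LRIG1 mark stem cells of the upper follicle. Periostin, tenascin C, follistatin and FGF18 are made by or around the bulge and belong to the niche that holds these cells quiescent or attached.

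The SOX9 lists held 792, 15651, 18657, 20579 and 9745 peaks over the 5 times from D0 to W12, and the 3 MLL3/4 lists of skin held 37072, 31539 and 29281. SOX9 and MYC-tag lists are limited to peaks with a maximum above 1800 RPKM (reads per kb, scaled to library size). That limit stood for 24 to 59 fragments in skin but only 8 to 11 in culture, because the libraries differed in depth, between 13.1 and 32.5 M fragments in skin and between 4.04 and 6.09 M in culture. A site without a listed peak is thus one below the limit or not called, not one shown to be unbound. The depth of the MLL3/4 lists is unknown, and the lowest maximum listed was 5 reads in skin.

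The sequences below surround the maxima of the SOX9 region with the highest total signal at each gene. They are shown because total signal was highest there, with 50 bases to each side, read from the mm10 reference. The highest maximum can lie elsewhere. At *Lgr6* another region reached 3736 RPKM against 2478 at the one shown, and at *Lrig1* another reached 6968 against 5878. Capitals mark ATTGT or TTTGT, the core of the SOX word, or their reverse complements ACAAT and ACAAA. The window of *Fgf18* overlaps an annotated UTR and is not shown, and *Lgr5* had no SOX9 region.
Cd34 24.2 kb downstream of the start, chr1:194962994-194963094, mm10, plus strand: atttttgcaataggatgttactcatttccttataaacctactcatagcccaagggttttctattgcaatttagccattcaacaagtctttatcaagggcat
Lgr6 17.3 kb downstream of the start, chr1:135087894-135087994, mm10, plus strand: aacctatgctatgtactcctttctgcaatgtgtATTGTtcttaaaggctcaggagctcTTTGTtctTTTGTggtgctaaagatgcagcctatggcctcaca
Lrig1 19.0 kb upstream of the start, chr6:94719122-94719222, mm10, plus strand: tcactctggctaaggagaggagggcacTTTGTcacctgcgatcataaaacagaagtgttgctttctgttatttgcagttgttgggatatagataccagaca
Postn 9.44 kb downstream of the start, chr3:54370494-54370594, mm10, plus strand: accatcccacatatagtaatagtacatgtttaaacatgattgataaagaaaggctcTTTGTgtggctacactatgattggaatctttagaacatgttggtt
Tnc 12.2 kb downstream of the start, chr4:64034737-64034837, mm10, plus strand: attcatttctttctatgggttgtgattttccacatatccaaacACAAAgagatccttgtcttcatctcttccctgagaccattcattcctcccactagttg
Fst 29.3 kb upstream of the start, chr13:114488247-114488347, mm10, plus strand: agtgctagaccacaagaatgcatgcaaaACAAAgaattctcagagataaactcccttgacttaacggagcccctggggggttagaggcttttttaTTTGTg

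Of these 6 windows, *Cd34* held no core word and *Lgr6* held 3. Over all 30 SOX9 regions of the 8 genes, 16 (53.3%, 95% Wilson interval 36.1 to 69.8%) held a core word, against 51.2% of all 28549 SOX9 regions. The full SOX words, which are CCATTGT, the word CCTTTGT, the word GCATTGT and the word GCTTTGT, on either strand, occurred in 4 of the 30 regions (13.3%, 5.31 to 29.7%), against 17.3% of all regions. In windows reaching 100 bp to each side the order turned, with 9 of 30 (30%, 16.7 to 47.9%) against 25.5%. The 4 windows with a full word follow, with that word or its reverse complement in capitals. They belong to regions of *Cd34*, *Lrig1* and *Fst* and to none of the regions of highest total signal.
Cd34 43.5 kb upstream of the start, chr1:194895249-194895349, mm10, plus strand: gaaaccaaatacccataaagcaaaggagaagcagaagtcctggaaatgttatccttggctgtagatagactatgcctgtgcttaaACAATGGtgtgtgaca
Lrig1 71.7 kb downstream of the start, chr6:94628397-94628497, mm10, plus strand: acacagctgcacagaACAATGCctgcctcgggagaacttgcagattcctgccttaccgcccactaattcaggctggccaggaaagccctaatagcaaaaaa
Lrig1 18.8 kb downstream of the start, chr6:94681316-94681416, mm10, plus strand: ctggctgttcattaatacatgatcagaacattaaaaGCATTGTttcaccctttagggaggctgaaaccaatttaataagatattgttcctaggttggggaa
Fst 42.3 kb upstream of the start, chr13:114501250-114501350, mm10, plus strand: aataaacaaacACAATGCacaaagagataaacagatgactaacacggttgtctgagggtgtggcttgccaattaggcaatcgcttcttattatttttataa

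The AP1 words TGACTCA and TGAGTCA were found in 3 of the 30 windows (10%, 3.46 to 25.6%), against 19.7% of all regions. GATA words, which are AGATAAC or its variant AGATAAG, and the RUNX word AACCACA were found in 0 of 30, which allows a share of up to 10% (3 counts), against 2.53% and 2.59% of all regions. A match of letters is a description of the window and not a shown binding site.

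No SOX9 peak lay at any of the 8 genes at D0, whereas 14, 22, 22 and 7 peaks were listed over the 4 times of DOX, W1, W2, W6 and W12. Genes with at least 1 peak numbered 0, 6, 6, 6 and 3 of 8 from D0 to W12. The background over all protein-coding genes was 6.04%, 52.4%, 57.5%, 58.8% and 39.8% in the same order, so the number of marker genes with a peak was near that of other genes. The median number of peaks per marker gene was 1, 2 and 2 for the first 3 times of DOX, against 1 over all genes each time, and 0 for both at W12. Over the 1.33 Mb of the 8 loci the density from W1 to W12 was 10.5, 16.5, 16.5 and 5.26 peaks per Mb, and over the genome 5.74, 6.85, 7.55 and 3.58. A large share of that density came from *Lrig1*, without which the 4 values were 7.04, 10.6, 11.4 and 2.64 peaks per Mb. Without *Lrig1* the W12 density was therefore below that of the genome. The genome density covers whole chromosomes, including stretches far from genes, and a density over the loci of all genes was not computed.

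**Figure D1:**
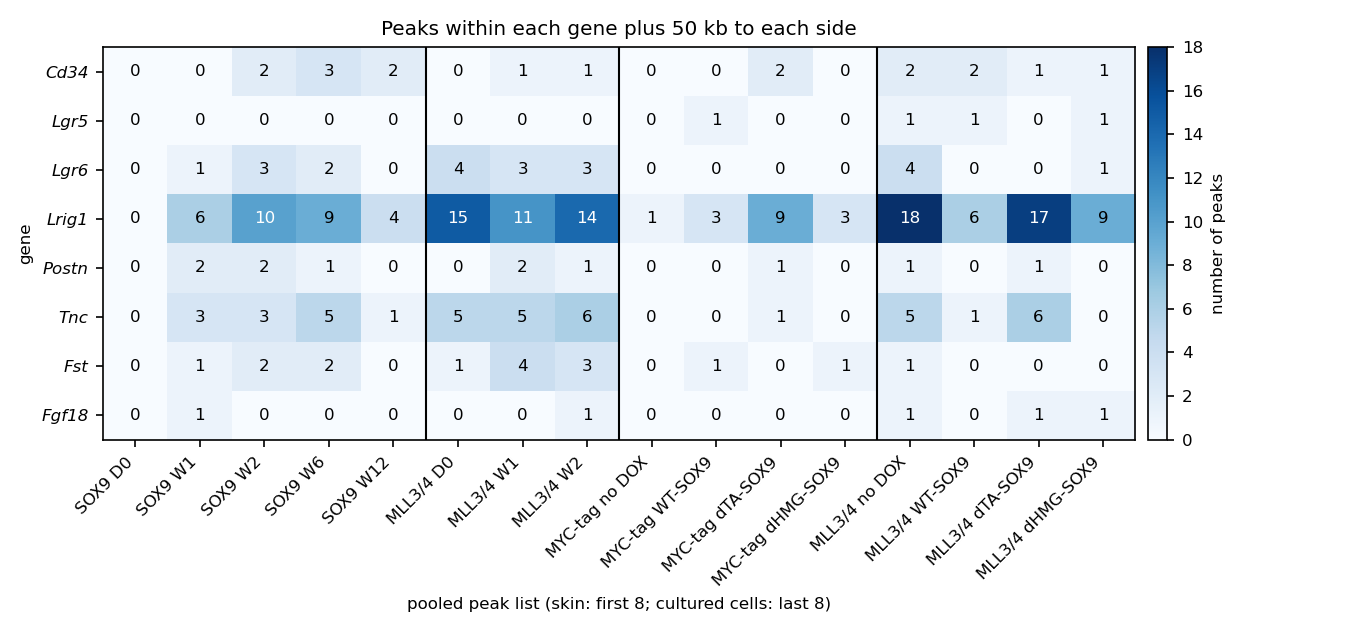
Number of peaks within each gene plus 50 kb to each side (rows) in each of the 16 pooled lists (columns, skin in the first 8 and cultured cells in the last 8). *Lrig1* holds the most peaks in every list with a peak at more than 1 gene, *Lgr5* holds none in skin, and the SOX9 D0 column is 0 throughout.

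By gene, 7 of 8 had a SOX9 peak at some time from W1 to W12, against 67.1% of all genes, and 2, *Lrig1* and *Tnc*, had one at each of the 4 times, against 32.4%. *Lgr5* was the only one without a SOX9 or MLL3/4 peak in any of the 8 lists from skin, as were 19.7% of all genes. Merging overlapping peaks of W1 to W12 gave 30 SOX9 regions, 11 at *Lrig1*, 6 at *Tnc*, 5 at *Lgr6*, 3 at *Cd34*, 2 at *Postn*, 2 at *Fst* and 1 at *Fgf18*. Of these, 11 were listed at 1 time, 8 at 2, 7 at 3 and 4 at all 4 times. The corresponding shares of 36.7%, 26.7%, 23.3% and 13.3% compare with 36%, 24.3%, 21.8% and 17.9% of all SOX9 regions. The maximum of 28 of the 30 regions lay more than 1 kb from the start of the gene.

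**Figure D2:**
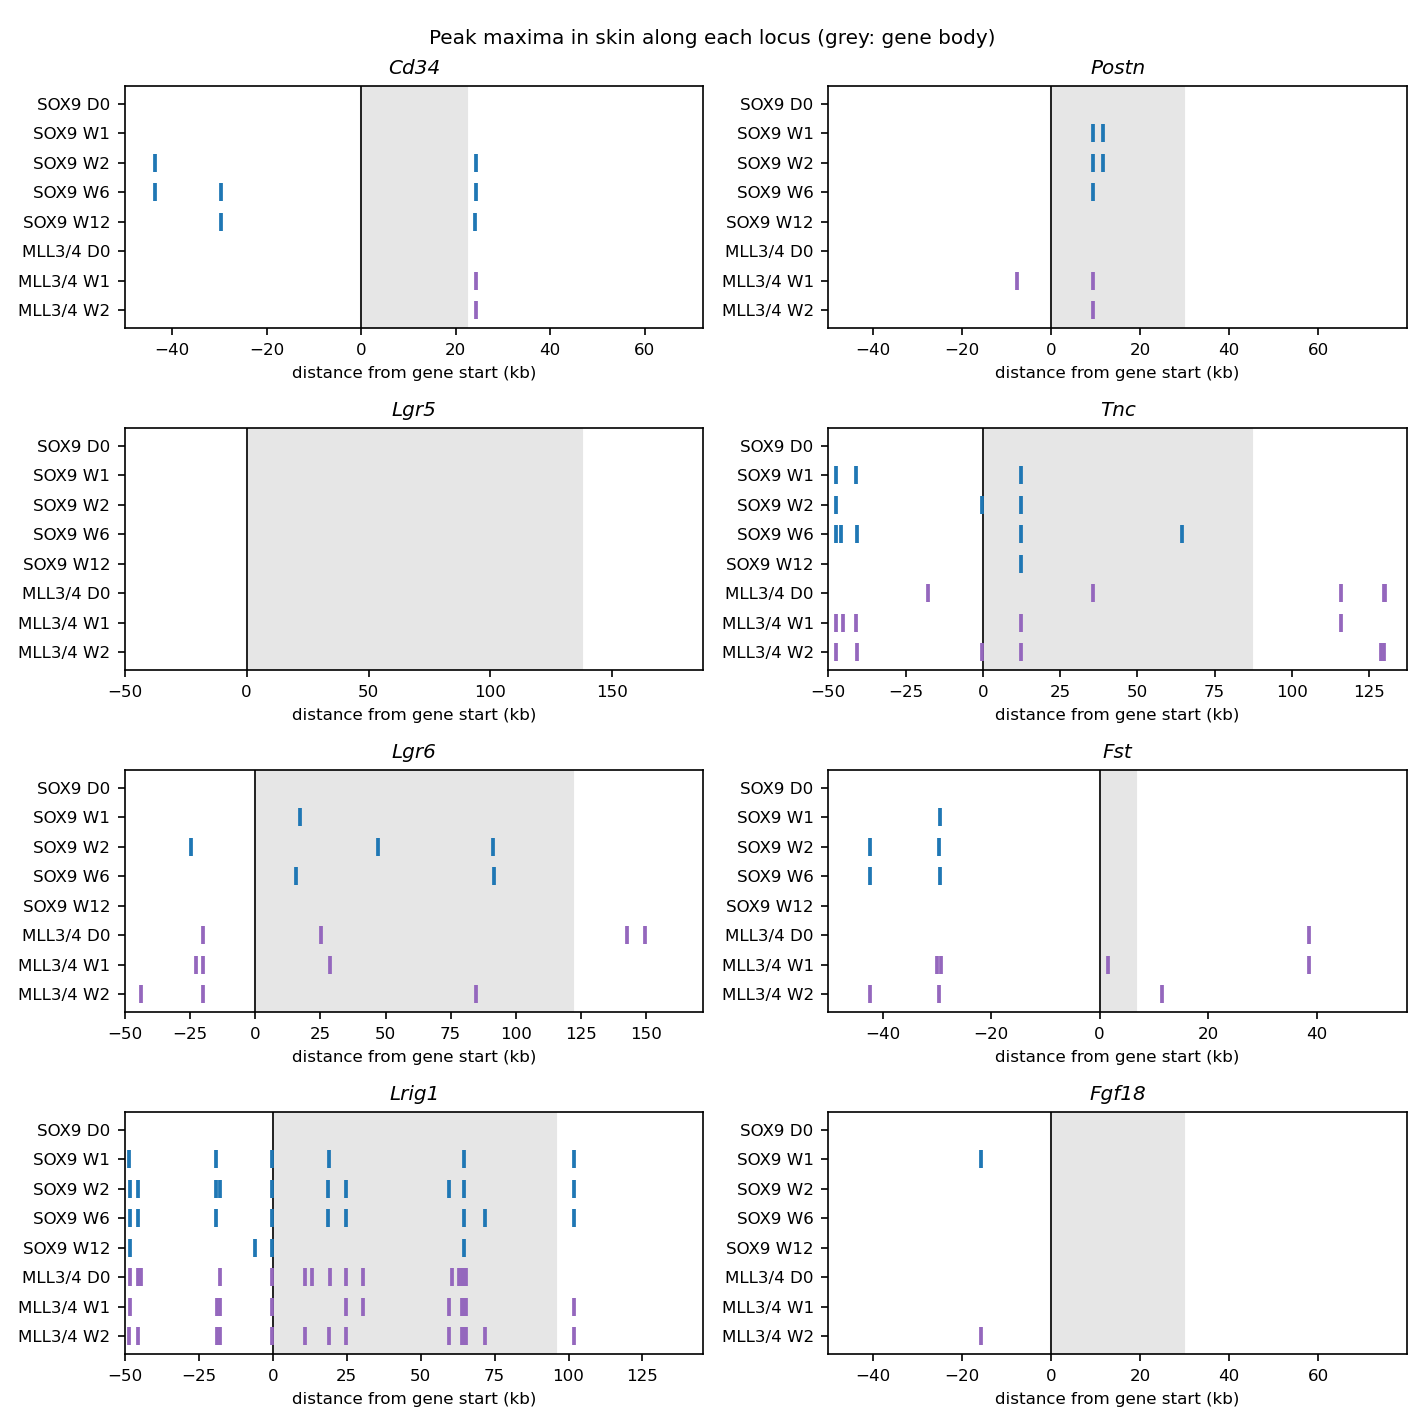
Positions of peak maxima in the 8 lists from skin (blue, SOX9; purple, MLL3/4), as distance in kb from the start of each gene, with the gene body in grey. *Lrig1* has at least 1 peak in its body and upstream of it in all lists but SOX9 D0, whereas at *Cd34* and *Postn* the MLL3/4 lane of D0 is empty.

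*Cd34* codes for a sialomucin of the cell surface that defines bulge stem cells in mice. The gene lies on chr1:194938819-194961279 and had 0, 0, 2, 3 and 2 SOX9 peaks, given here and below in the order D0, W1, W2, W6 and W12. It was the only one of the 7 bound genes first listed at W2. Its strongest region, chr1:194962536-194963275, lies just beyond the end of the gene, in an intron of the overlapping noncoding gene Gm16897. SOX9 reached 6265 RPKM there at W2, 5373 at W6 and 2712 at W12. An MLL3/4 peak was not listed at this site at D0 but was at W1, with a maximum of 6 reads, before a SOX9 peak was listed, and again at W2, with 10 reads. The region 29.7 kb upstream had SOX9 at W6 and W12 (3526 and 3952 RPKM), and that at 43.5 kb upstream at W2 and W6 (2445 and 2267 RPKM). Neither was overlapped by MLL3/4 in skin. In these CD34-negative cells, 1 of the 3 sites near *Cd34* was thus listed from W2 to W12, while 1 was listed from W6 and 1 was no longer listed at W12.

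*Lgr5* and *Lgr6* code for receptors of R-spondins, which strengthen Wnt signalling. *Lgr5* (chr10:115450311-115587780) had no peak of SOX9 or MLL3/4 in skin over its 237.5 kb locus. *Lgr6* (chr1:134983301-135105276) had 0, 1, 3, 2 and 0 SOX9 peaks. Its 5 regions were weak, with highest maxima from 1889 to 3736 RPKM, and 4 of them were listed at 1 time only. The strongest by total signal, chr1:135087310-135088074 in an intron, reached 2478 RPKM at W1. Within its own list it was in the top 51.7%. The region 91.4 kb downstream of the start, with 3736 RPKM at W6, was in the top 48.8% of that list. The 3 MLL3/4 lists held 4, 3 and 3 peaks here, and none lay on a SOX9 region. Of the 3 W2 peaks, 1 was kept from D0. The *Lgr6* locus also holds 4 other protein-coding genes (*Ppp1r12b*, *Ube2t*, *Ptpn7* and *Arl8a*).

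*Lrig1* codes for a transmembrane protein that restrains signalling from receptors of the EGF family. Its locus (gene at chr6:94604529-94700158) held 0, 6, 10, 9 and 4 SOX9 peaks. At W2 only 1.81% of all genes had as many or more, and at W12 3.58%. From D0 to W2 it also held 15, 11 and 14 peaks of MLL3/4, while the other 7 genes together held 10 at D0 and 15 at W1 and at W2. An intronic region 64.6 kb downstream of the start, chr6:94634356-94636533, was bound at all 4 times with 6050, 5883, 6968 and 4688 RPKM. The promoter, chr6:94699923-94700589, was listed at all 4 times as well, with 2881, 5577, 3358 and 1838 RPKM, the last near the limit of 1800 RPKM. In culture a MYC-tag peak was listed at this promoter also without DOX and with dHMG-SOX9. The intergenic region 19.0 kb upstream, chr6:94717345-94719753, had the highest total signal and maxima of 5878, 5577 and 3442 RPKM over the first 3 times of DOX, and was not listed at W12. All 3 sites had MLL3/4 peaks at D0, W1 and W2. The D0 MLL3/4 peak of the region 19.0 kb upstream was within the top 1.2% of its list by total signal and the stronger of 2 at W2 within the top 0.41%. The *Lrig1* locus also holds the protein-coding gene *Slc25a26*, in which the SOX9 region chr6:94598174-94598821 lies.

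*Postn* codes for periostin, a matricellular protein, and *Tnc* for tenascin C, a large hexameric matrix glycoprotein of the bulge. *Postn* (chr3:54361109-54391037) had 0, 2, 2, 1 and 0 SOX9 peaks, all in introns. The maximum at chr3:54370159-54370891 was 6108, 5424 and 2561 RPKM from W1 to W6, and the region chr3:54372079-54372978 had 4207 RPKM at W1 and 2063 at W2. SOX9 at *Postn* was thus listed early and lower or absent later. No MLL3/4 peak was listed at D0, and the first region had MLL3/4 peaks at W1, with a maximum of 5 reads, and at W2, with 6 reads.

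*Tnc* (chr4:63959785-64047015) had 0, 3, 3, 5 and 1 SOX9 peaks. Its intronic region 12.2 kb downstream of the start, chr4:64034357-64035157, had the highest maximum among the SOX9 lists of skin at the 8 genes. The maximum there was 7664, 8098, 10746 and 9467 RPKM over the 4 times of DOX, from 133, 106, 256 and 206 fragments. This site was higher at W12 than at W1 or W2. The leading site of *Cd34*, not listed at W1, was lower at W12 than at W2. Those of *Postn*, *Lrig1* and *Fst* were not listed at W12, and that of *Fst* was higher at W6 (3778 RPKM) than at W1 (2017 RPKM). By total signal the *Tnc* site was within the top 3.35% of the W6 list. It had no MLL3/4 peak at D0 and had one at W1 (maximum 7 reads) and at W2 (8 reads). At the *Tnc* promoter SOX9 was listed only at W2 (2063 RPKM), together with an MLL3/4 peak of 5 reads that was not listed at D0. Regions 40.9 and 47.5 kb upstream also had MLL3/4 at W1 and W2 but not at D0.

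*Fst* codes for follistatin, a secreted antagonist of activins, and *Fgf18* for a growth factor that keeps hair follicles at rest. *Fst* (chr13:114452290-114458951) had 0, 1, 2, 2 and 0 SOX9 peaks, all upstream of the gene in intergenic sequence. The region chr13:114487791-114488787 had 2017, 3743 and 3778 RPKM from W1 to W6, and chr13:114500936-114501447 had 3896 at W2 and 3274 at W6. MLL3/4 was not listed at either at D0 and was listed at the first at W1 and W2 and at the second at W2. The W2 MLL3/4 peak of the first was within the top 6.49% of its list. *Fgf18* (chr11:33117430-33147400) had a single SOX9 peak, at W1, with 1959 RPKM. That peak lies at the promoter of the neighbouring gene *Npm1*, which codes for nucleophosmin and whose start is the nearest one. MLL3/4 was listed there at W2.

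**Figure D3:**
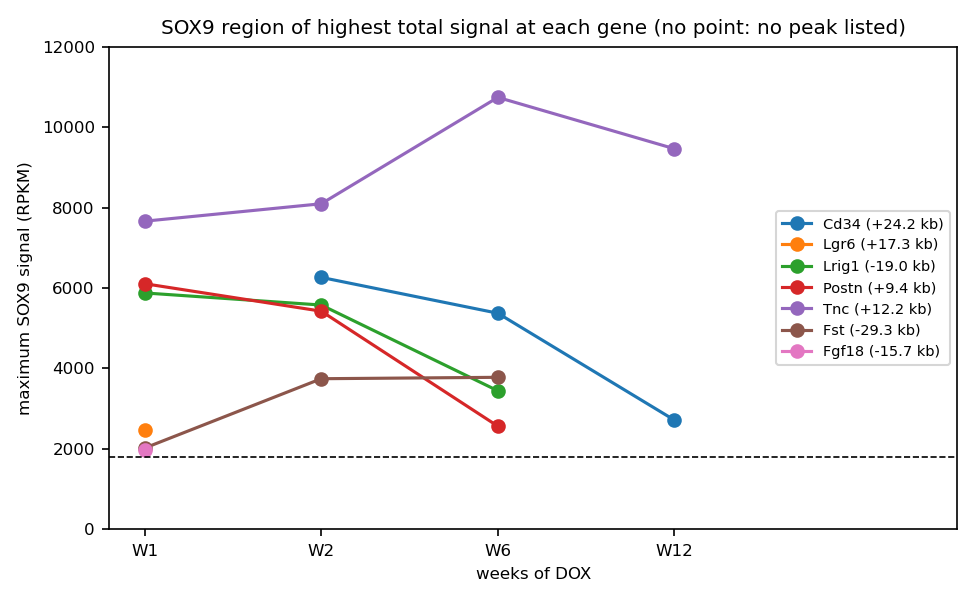
Maximum SOX9 signal in RPKM (y axis, linear) at the region of highest total signal of each gene over W1, W2, W6 and W12. The dashed line marks the limit of 1800 RPKM, and no point means that no peak was listed. The *Tnc* site lies between 7664 and 10746 RPKM at all 4 times, whereas the *Cd34*, *Postn* and *Lrig1* sites are lower at their last listed time than at their first. The *Fst* site is higher at its last listed time, W6, than at its first.

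In skin, MLL3/4 peaks were listed at few of these sites at D0. Genes with an MLL3/4 peak anywhere in the locus numbered 4 of 8 before DOX, 6 at W1 and 7 at W2, against a background of 71.7%, 67.9% and 65.0% of all genes. The median number of MLL3/4 peaks per gene was 0.5, 2.5 and 2, against 2, 2 and 1 over all genes. A D0 MLL3/4 peak overlapped 7 of the 30 SOX9 regions (23.3%, 11.8 to 40.9%), against 53.7% of all SOX9 regions. All 7 were at *Lrig1*, where they made up 63.6% of its 11 regions. At the other 7 genes 0 of 19 regions had MLL3/4 at D0, which allows a share of up to 15.8% (3 counts). The W1 list overlapped 13 regions (43.3%, 27.4 to 60.8%) and the W2 list 19 (63.3%, 45.5 to 78.1%), against 59.8% and 60.1% of all regions. Regions without MLL3/4 at D0 and with it at W1 or W2 numbered 12 (40%, 24.6 to 57.7%), against 20.7% of all regions, 9 of them at the other 7 genes and 3 at *Lrig1*. A further 11 regions (36.7%, 21.9 to 54.5%), 10 of them outside *Lrig1*, had no MLL3/4 peak in any of the 3 lists, against 25.6% of all regions. Regions of 1 gene share their locus and are not independent, so the intervals cover counting error only.

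Across all MLL3/4 peaks of the 8 genes, 14 of the 25 D0 peaks (56%, 37.1 to 73.3%) were lost at W1, meaning that no W1 peak overlapped them, against 48.5% of the whole D0 list. Of the 26 W1 peaks 14 were gained (53.8%, 35.5 to 71.2%), against 39.7% of the whole list. At W2, 14 D0 peaks were lost (whole list 48.7%) and 17 of 29 peaks were gained (58.6%, 40.7 to 74.5%), against 35.7% of the whole list. A SOX9 peak of the same week lay on 6 of 14 gained peaks at W1 (42.9%, 21.4 to 67.4%) and on 10 of 17 at W2 (58.8%, 36 to 78.4%), against 30.5% and 38.5% over the whole lists. It lay on 7 of 12 kept peaks at either week (58.3%, 32 to 80.7%), all 7 at *Lrig1*, against 55% and 58.4% over the whole lists. Of the 14 lost peaks it lay on 1 at W1 and on 0 at W2, against 7.58% and 9.06% of all lost peaks. The gained peaks were low, with a median maximum of 5 reads at W1 and 6 at W2, and 9 of 14 and 6 of 17 of them were at the lowest maximum listed. With SOX9 maxima above 3600 RPKM the share of gained peaks under SOX9 was 14.3% at W1 and 29.4% at W2, against 13.1% and 17.1% over the whole lists. With SOX9 and MLL3/4 lists cut to equal size it was 33.3% at both weeks (whole lists 25.4% and 23.1%), and with the upper 50% of each list 60% and 62.5% (whole lists 42.5% and 46.7%).

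Gained MLL3/4 peaks occurred at 6 of the 8 genes at W1, against 45.6% of all genes, and at 7 at W2, against 42.2%. Those under a SOX9 peak of the same week occurred at 4 genes at W1 (16.6% of all genes), which were *Lrig1*, *Postn*, *Tnc* and *Fst*, and at 5 at W2 (18.9% of all genes), when *Cd34* joined them. At W1 that peak of the *Lrig1* locus, chr6:94598240-94598620, lay within the neighbouring gene *Slc25a26*, whose start is the nearest one. By gene the kept and gained numbers differed. *Lrig1* kept 9 and gained 2 of its 11 W1 peaks, and kept 10 and gained 4 of its 14 W2 peaks. *Tnc* gained 4 of 5 at W1 and 5 of 6 at W2 and lost 4 of its 5 D0 peaks. *Fst* gained 3 of 4 at W1 and 3 of 3 at W2. *Cd34* and *Postn* had no D0 peak, and so all of theirs were gained. *Lgr6* gained 2 of 3 at each week, none under SOX9.

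**Figure D4:**
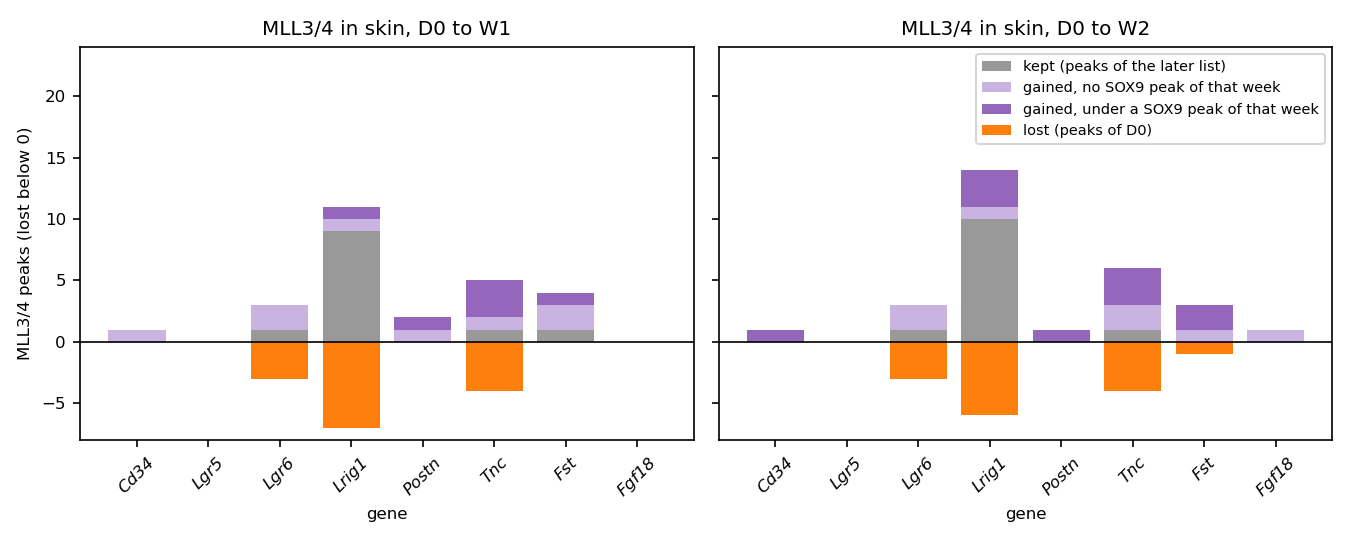
MLL3/4 peaks of each gene at W1 (left) and W2 (right), split into kept and gained peaks of the later list (above 0) and lost peaks of D0 (below 0). Grey bars, the kept peaks, are highest at *Lrig1*, with 9 at W1 and 10 at W2 of 12 in all at either week, and dark purple bars, gained peaks under SOX9, occur at 4 genes at W1 and 5 at W2.

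In culture, most of the skin sites were not listed as bound. The MYC-tag lists held 1, 5, 13 and 4 peaks at the 8 genes in cells without DOX and with WT-SOX9, dTA-SOX9 and dHMG-SOX9. Genes with a peak numbered 1, 3, 4 and 2, against a background of 20.1%, 32.0%, 41.0% and 29.3% of all genes. WT-SOX9 overlapped 3 of the 30 skin regions (10%, 3.46 to 25.6%), all at *Lrig1*, against 12.2% of all skin regions, and dTA-SOX9 overlapped 7 (23.3%, 11.8 to 40.9%), against 17.5%. Of these 7, 5 were at *Lrig1*. At the other genes dTA-SOX9 overlapped 2 of 19 regions (10.5%, 2.94 to 31.4%), a share below that of all regions. One of the 3 WT-SOX9 regions was the *Lrig1* promoter, at which a MYC-tag peak was also listed without DOX (2834 RPKM) and with dHMG-SOX9 (2478 RPKM), that is, without induced SOX9 and with SOX9 that lacks its DNA-binding domain. The *Tnc*, *Postn* and *Fst* regions were overlapped by no MYC-tag list.

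*Lrig1* had 9 peaks in the dTA-SOX9 list, a number that 0.488% of all genes reached, and 3 in the WT-SOX9 list, which 4.43% reached. The dTA-SOX9 list was the longer one, with 11341 against 6671 peaks, and with lists of equal size the 8 genes together had 3 dTA-SOX9 and 1 WT-SOX9 peaks. At the intronic *Lrig1* site, chr6:94635310-94635675, dTA-SOX9 reached 12512 RPKM, within the top 0.326% of its list, and WT-SOX9 3447 RPKM, within the top 10.7%. The site beyond the end of *Cd34* had dTA-SOX9 at 6564 RPKM, within the top 1.19% of its list, and no WT-SOX9 peak. MLL3/4 was already listed at this *Cd34* site without DOX, and also with WT-SOX9, dTA-SOX9 and dHMG-SOX9, unlike at D0 in skin. *Lgr5* had a single WT-SOX9 peak of 1806 RPKM, at the limit of the list, which no other list overlapped.

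MLL3/4 peaks in culture numbered 33 without DOX and 10, 26 and 13 with WT-SOX9, dTA-SOX9 and dHMG-SOX9. Genes with a peak numbered 8, 4, 5 and 5, against a background of 70.9%, 42.4%, 65.9% and 64.3% of all genes. Unlike the D0 list of skin, the list without DOX overlapped 13 of the 30 SOX9 regions (43.3%, 27.4 to 60.8%), against 44.7% of all regions. Of the 19 regions outside *Lrig1* it overlapped 5 (26.3%, 11.8 to 48.8%). With WT-SOX9, 25 of the 33 peaks without DOX were lost (75.8%, 59 to 87.2%), against 82.0% of the whole list, and 2 of 10 were gained (20%, 5.67 to 51%), against 41.8%. The MLL3/4 list without DOX came from WT-SOX9 cells, so for dTA-SOX9 and dHMG-SOX9 a gain or loss is a difference from another transduced line, in which induction and the line cannot be told apart. Genes with a gained peak numbered 2, 4 and 1 with WT-SOX9, dTA-SOX9 and dHMG-SOX9, against 20.4%, 36.3% and 30.1% of all genes. Those with a gained peak under a MYC-tag peak of the same cells numbered 0, 1 and 0, against 11.9%, 7.96% and 0.862%. Of the 33 peaks of uninduced WT-SOX9 cells, 12 were not listed in dTA-SOX9 cells (36.4%, 22.2 to 53.4%) and 21 in dHMG-SOX9 cells (63.6%, 46.6 to 77.8%), against 44.3% and 43.5% of the whole list. The lower share with dTA-SOX9 came from *Lrig1*, where 2 of 18 were not listed. Without *Lrig1*, 10 of 15 were not listed in dTA-SOX9 cells and 12 of 15 in dHMG-SOX9 cells, both above the share of the whole list. The 4 *Lgr6* peaks of the uninduced cells were overlapped in none of the 3 forms. Of the 5 *Tnc* peaks, 4 were not listed in WT-SOX9 cells, 1 in dTA-SOX9 cells and 5 in dHMG-SOX9 cells. The whole WT-SOX9 list had 10543 MLL3/4 peaks against 33975 without DOX. Which replicates stand behind the WT-SOX9 list is unsure from the labels. The depth of these lists is unknown, and its part in the loss was not tested.

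**Figure D5:**
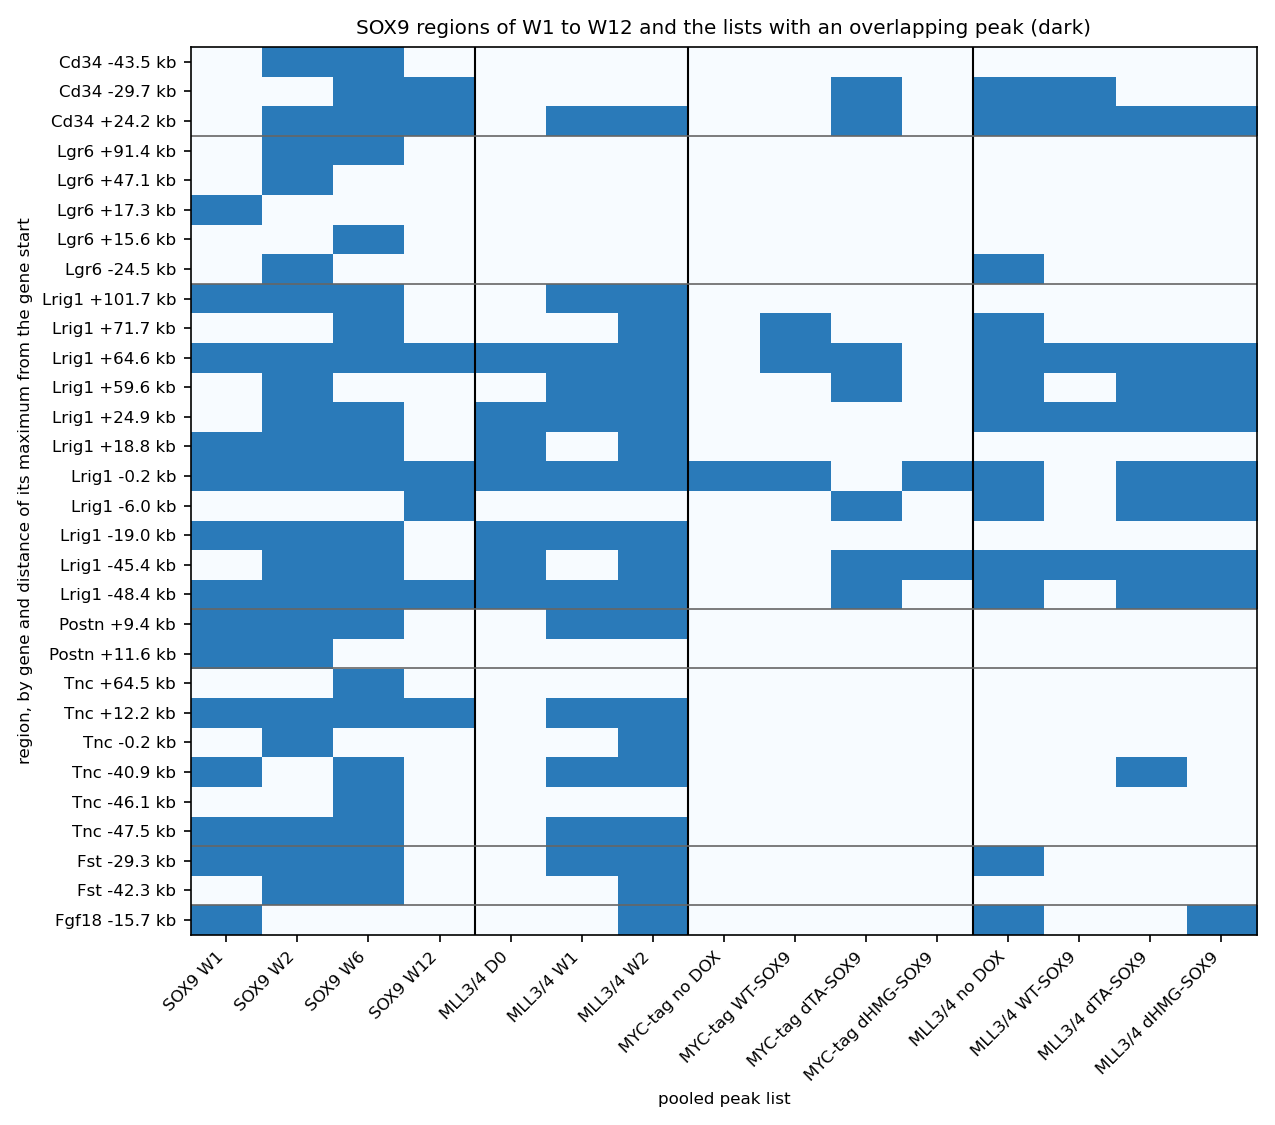
The 30 SOX9 regions (rows, by gene and distance in kb from its start) and the pooled lists with an overlapping peak (dark cells), grouped as SOX9, MLL3/4 in skin, MYC-tag and MLL3/4 in culture. MLL3/4 D0 cells are dark at 7 *Lrig1* regions only, and the MYC-tag columns are empty for *Lgr6*, *Postn*, *Tnc*, *Fst* and *Fgf18*.

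Partners and paralogs of the 8 genes, 24 in all, were counted in the same way. A SOX9 peak at some time from W1 to W12 was found at 18 of the 24, against 67.1% of all genes, and 13 had one at each time, against 32.4%. Gained MLL3/4 peaks occurred at 12 at W1 and 12 at W2, against 45.6% and 42.2% of all genes, and under SOX9 at 6 and 9, against 16.6% and 18.9%. The most W2 SOX9 peaks were 63 at *Fgfr2*, a receptor of FGF18 whose annotated locus spans 3061 kb, followed by 9 at *Lgr4*, a receptor of R-spondins, and 9 at *Znrf3*, a ubiquitin ligase that R-spondins inhibit. *Lgr4* had 0, 8, 9, 8 and 6 SOX9 peaks in that order, unlike its paralog *Lgr5* with none. *Inhbb*, a subunit of activin B, which follistatin binds, had 0, 5 and 7 peaks of MLL3/4 from D0 to W2. All of them were gained, 5 and 6 of them under SOX9. *Podxl*, of the CD34 family, had no peak in skin.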

How the data were processed

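CNR peak lists of 32 of the 41 samples were used, as 16 lists of pooled replicates (2 samples each) and 2 lists of replicate 1 alone. Not analysed here were 9 samples of JUN, ARID1a and BRG1. The labels describe both samples of MLL3/4 in induced WT-SOX9 cells as replicate 2, although their titles number them 1 and 2. The authors aligned reads to mm10 with Bowtie2 2.2.9, deduplicated with Picard, limited fragments to 120 bp with SAMtools 1.3.1, pooled replicates, made coverage with deepTools 3.1.2 and called peaks with SEACR at 0.01. In the deposited SOX9, MYC-tag and replicate 1 lists the maximum signal is in RPKM, as scaled by the authors. The pooled MLL3/4 lists were deposited with unscaled coverage as signal, although the authors described RPKM, so signal values of the 2 kinds were never compared. The other deposited score is the total signal, summed over a peak by the authors, and was used for ranks within a list. It was also compared across the SOX9 lists of W1 to W12 to pick the region of highest total signal at each gene. The fragments behind a maximum were taken as its RPKM divided by the RPKM of 1 fragment, the largest step of which all maxima were whole multiples (tolerance 0.05).

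Genes came from GENCODE release M21 and sequence from the RefSeq copy of GRCm38.p6 (mm10). Peaks were assigned to a gene within its body plus 50 kb, overlaps needed 1 bp, and MLL3/4 peaks were called lost, kept or gained by overlap with D0 or, for all 3 forms in culture, with the WT-SOX9 cells without DOX. Words were counted within 50 bp of the maximum on both strands. Shares have 95% Wilson intervals, which cover counting error only. No test between groups was made, since each group has 1 list. For each gene the region of highest total signal was named, and for related genes the 3 with the most W2 SOX9 peaks. Counting was tested on simulated data. The 8 genes, the related genes and the comparisons were chosen with earlier results of these data known. The alternatives were loci of 10 kb, the nearest start, the upper 50% of each list, lists of equal size, a maximum above 3600 RPKM, an overlap of 50%, merging within 500 bp, replicate 1 alone, wider windows and shorter words, and, added after the data were seen, leaving out *Lrig1*. Python 3.11.15, pandas 2.3.3, numpy 2.4.6, scipy 1.17.1, pysam 0.24.0 and matplotlib 3.10.9 were used.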

Additional observations from a re-analysis of the deposited data

Results flagged for a closer look

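At *Postn* and *Fst*, the number of MLL3/4 peaks differed in opposite directions in skin and in culture. From D0 to W1 in skin the number of MLL3/4 peaks was higher by 2 at *Postn* and by 3 at *Fst*, and from D0 to W2 by 1 and by 2. Both W1 peaks of *Postn* had a maximum of 5 reads, the lowest listed. At *Fst*, the W1 peaks chr13:114487904-114488691 and chr13:114488805-114489143 were overlapped by a single W2 peak, chr13:114487933-114489069. In culture, from no DOX to WT-SOX9, it went from 1 to 0 at each gene, a difference of -1. The lost peak of culture was weak, at the top 96.6% of the no-DOX list at *Postn* and the top 93.3% at *Fst*, and 82.0% of that whole list was lost with WT-SOX9. With 10 kb to each side both genes had 0 MLL3/4 peaks without DOX and 0 with WT-SOX9, so that no difference remained in culture. In skin, the difference with 10 kb was then 1 at *Fst* at either week (0 peaks at D0 and 1 at W1 and at W2), and at *Postn* it stayed at 2 and 1. From D0 to W2 alone, 2 further genes also differed in opposite directions. *Tnc* went from 5 to 6 peaks in skin and from 5 to 1 in culture, and *Fgf18* from 0 to 1 in skin and from 1 to 0 in culture, while neither differed in number from D0 to W1. Each group is 1 pooled list, so these differences between skin and culture were not tested.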

How the results depend on the processing

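No paired analysis was possible because 1 pooled list stood for both replicates of every group. Without replicate 2, both counts without DOX stayed within 1.5 times of the pooled ones (1 against 1 MYC-tag peak and 36 against 33 MLL3/4 peaks), with MYC-tag peaks of replicate 1 held to the same limit of 1800 RPKM. The MLL3/4 list of replicate 1 was called on a track in RPKM and the pooled one on unscaled coverage, so scale and replicate changed together. An overlap of 50% and merging within 500 bp moved none of the results recomputed. Taking only peaks with the gene as nearest start moved 1, the lost MLL3/4 peaks of W2 (9).

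Loci of 10 kb gave 8, 13 and 12 SOX9 peaks at W1, W2 and W6, 13, 14 and 16 peaks of MLL3/4 from D0 to W2, 7 dTA-SOX9 and 2 dHMG-SOX9 MYC-tag peaks, 18 and 6 culture MLL3/4 peaks without DOX and with WT-SOX9, 18 regions, 8 and 10 gained and 7 and 7 lost MLL3/4 peaks. The upper 50% of each list gave 9, 11, 13 and 4 SOX9 peaks from W1 to W12, 13, 12 and 13 MLL3/4 peaks, 0, 1, 8 and 2 MYC-tag and 16, 4, 12 and 8 MLL3/4 peaks in culture, 17 regions, 5 and 8 gained and 7 and 9 lost peaks, and SOX9 on 100% of 5 kept W2 peaks. Lists of equal size gave 13 and 12 SOX9 peaks at W2 and W6, 1, 3 and 2 MYC-tag peaks with WT-SOX9, dTA-SOX9 and dHMG-SOX9, 11, 10 and 7 MLL3/4 peaks without DOX and with dTA-SOX9 and dHMG-SOX9, 19 regions, and SOX9 on 33.3% of gained W2 peaks. A maximum above 3600 RPKM gave 6, 11, 7 and 3 SOX9 peaks, 0, 0, 7 and 0 MYC-tag peaks, 14 regions, and SOX9 on 14.3% and 29.4% of gained peaks at W1 and W2. These settings use fewer peaks or shorter loci by construction.

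Windows of 100 bp to each side held a SOX word at 30% of regions (25.5% of all regions) and short words were held by 53.3% (51.2%). Without *Lrig1*, 8, 12, 13 and 3 SOX9 peaks, 10, 15 and 15 MLL3/4 peaks, 0, 2, 4 and 1 MYC-tag and 15, 4, 9 and 4 MLL3/4 peaks in culture, 19 regions and 7 and 8 lost peaks remained, with SOX9 on 0% of the 3 kept W1 and 2 kept W2 peaks. The depth of the MLL3/4 lists is unknown, and many gained peaks sat at their lowest listed maximum.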

Other observations

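Over the 16 lists, the genes whose numbers of peaks were most like those of *Lrig1* were *Ppm1d* (Pearson r = 0.975 on log2 of 1 plus peaks), *Dip2b* (0.973) and *Tango6* (0.967). For *Tnc* they were *Mrps27* (0.953), *Syk* (0.939) and *Rps27l* (0.938). The lists differ in length, which all genes share, and the values are descriptions.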
